A study of Homo sapiens with 6 samples.

Results

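The inclusion of skipped exons was compared directly between SNRPA1 knockdown and SNRPB knockdown in MDA-LM2 cells, a human line derived from MDA-MB-231 breast cancer cells and selected for metastasis to the lung. A skipped exon is a middle exon that a transcript either keeps or leaves out between the same 2 neighbours. Exons entered the comparison with at least 20 informative reads in each knockdown, where an informative read fits only the form with the exon or only the form without it. Where several annotated events shared a middle exon, only the event best covered by informative reads over both knockdowns was kept. This left 14331 exons of 6189 genes, from 15996 events, out of 40658 middle exons in the series. Of these, 5088 exons of 3093 genes carried 5 or more inclusion reads and 5 or more exclusion reads when both knockdowns were added up, and were tested. The other 9243 were not tested, 7958 of them for too few exclusion reads and 1285 for too few inclusion reads. At the edge of the read minimum, 312 exons with 20 reads in the shallower knockdown had a median absolute difference in inclusion of 0.07, as did 369 events with 19 reads.

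SNRPA1 encodes U2 A', which belongs to the U2 snRNP (small nuclear ribonucleoprotein), the particle that pairs with the branch point upstream of a 3' splice site. SNRPB encodes SmB and SmB', members of the ring of Sm proteins on which the U1, U2, U4 and U5 snRNPs are built. Both proteins thus belong to U2, while SmB/B' is also part of the particle that recognises 5' splice sites and of the tri-snRNP.

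Cells were collected 48 h after transfection. The siSNRPA1 pool holds 3 libraries of cells given siRNA against SNRPA1, the siSNRPB pool 1 library of cells given siRNA against SNRPB, and the siCtrl pool 2 libraries of cells given control siRNA. The labels name 3 siRNAs for SNRPA1, with knockdowns by quantitative PCR of 86%, 83% and 75%, and 2 for SNRPB, with 86%, and tie none of them to a library. In 1 place they name SNRPB2, a different gene, and SNRPB is used here. Each pool has 1 inclusion level per exon, so values come without replicates and without a standard deviation. Informative reads numbered 7831446 in siSNRPA1, 3396043 in siSNRPB and 5707839 in siCtrl, and member exons had a median of 170 in siSNRPA1 and 70 in siSNRPB. The median share of an event's reads that fit neither form was 78.1%, 68.8% and 79.9% in the same order. The number of libraries, the depth and any batch differ with the knockdown, and their effects cannot be told apart from it.

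Each target was low in the pool named for it. SNRPA1 had 21.9 isoform-fitting reads per 1000000 in siSNRPA1, 272 in siSNRPB and 118 in siCtrl, 12.4-fold more in siSNRPB than in siSNRPA1. SNRPB had 337 per 1000000 in siSNRPA1, 30.6 in siSNRPB and 247 in siCtrl, so it was low in siSNRPB alone. In bulk RNA, fewer cells with a transcript and less of it per cell cannot be told apart. Of 8 genes of mesenchymal-like breast lines 5 had an annotated event, and these summed to 4385, 4632 and 4201 reads per 1000000 in siSNRPA1, siSNRPB and siCtrl, while VIM, CAV1 and MSN had none. CD44 alone had 3432, 3540 and 3266 of these, so the sums mostly follow that gene. Epithelial or luminal genes summed to 2.81, 1.75 and 5.39 (4 of 6 genes with an event, CDH1 and GRHL2 at 0 in siSNRPB), and blood and endothelial genes to 2.63, 0 and 4.53 (2 of 4, both at 0 in siSNRPB). Listed events had at least 20 reads of all kinds in a pool, and no event of these 4 genes was listed in siSNRPB, the shallowest pool, so their 0 there is an event not listed and not a measured absence.

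Some exon sequences are shown here first, those of 6 short coding exons with lower inclusion in siSNRPA1 and 3 with higher inclusion. They are coding exons on hg38, printed 5' to 3' on the transcript strand from GENCODE 29 transcripts, and the capitals mark the last 3 bases, the exon side of the 5' splice site. They were picked after their values were seen. The first 6 had lower inclusion in siSNRPA1 than in siSNRPB. They lie at chr1:114397940-114397990 (minus strand), chr3:146077862-146077924 (minus), chr11:33348166-33348228 (plus), chr9:128592983-128593042 (plus), chrX:40071637-40071690 (minus) and chr6:56468982-56468999 (minus).
TRIM33: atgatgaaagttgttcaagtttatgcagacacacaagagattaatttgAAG
PLOD2: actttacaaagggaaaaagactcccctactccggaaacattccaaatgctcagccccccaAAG
HIPK3: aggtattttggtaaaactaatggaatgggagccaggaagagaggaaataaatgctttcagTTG
SPTAN1: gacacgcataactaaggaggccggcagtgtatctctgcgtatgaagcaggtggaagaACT
BCOR: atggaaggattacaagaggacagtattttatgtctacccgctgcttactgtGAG
DST: ttcttcctgggaaatCAG
The next 3 had higher inclusion in siSNRPA1, and lie at chr4:151165589-151165696 (minus), chr1:23971573-23971626 (minus) and chr15:42528262-42528420 (plus).
SH3D19: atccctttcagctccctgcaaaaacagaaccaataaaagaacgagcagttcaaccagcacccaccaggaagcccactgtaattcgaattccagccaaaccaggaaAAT
SRSF10: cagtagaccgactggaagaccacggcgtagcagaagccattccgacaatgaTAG
SNAP23: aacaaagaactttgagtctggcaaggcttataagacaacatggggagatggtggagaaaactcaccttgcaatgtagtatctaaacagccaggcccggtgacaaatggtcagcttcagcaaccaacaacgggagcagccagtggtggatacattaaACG
All 9 lengths are multiples of 3, so that taking or skipping the exon keeps the reading frame. Such lengths made up 59.3% of tested coding exons, and the 9 are a picked set. Their GC content ran from 31.4% to 53.7%. Of the 9, 5 end in AG, the usual last pair of bases of an exon, and 7 in G. Among tested exons with a sequence, 55.0% end in AG and 78.6% in G.

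The 2 knockdowns left 747 of 5088 tested exons (14.7%) at different inclusion. The inclusion level, the authors' estimate, runs from 0 (always skipped) to 1 (always included), and "higher" and "lower" mean siSNRPA1 relative to siSNRPB throughout. Inclusion was higher for 424 exons of 370 genes (8.33% of tested exons) and lower for 323 exons of 287 genes (6.35%). An exon was called different at a Benjamini-Hochberg adjusted p under 0.05 (two-sided Fisher's exact test on inclusion and exclusion reads) and a difference in level of 0.1 or more that had the same sign as the difference in reads. With 1 pool per knockdown the test sets the reads of 2 pools against each other and does not test the conditions. Reads without molecular identifiers are not independent molecules, so every p and interval covers counting error only. Higher calls made up 56.8% of all calls (95% Wilson interval 53.2 to 60.3%). With non-overlapping authors' intervals in place of the test there were 809 calls (15.9%), and 47.5% were higher, so which direction is the larger depended on the rule. With all reads divided by 2, to stand in for reads that are copies of 1 molecule, 225 calls were kept. Of the 84 named calls still tested 41 were lost, those of HIPK3, SRSF10, DYRK2, DST, LIMCH1, APAF1 and HARS2 among them. Over all tested exons the median difference was 0.00 and the median absolute difference 0.05.

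**Figure D1:**
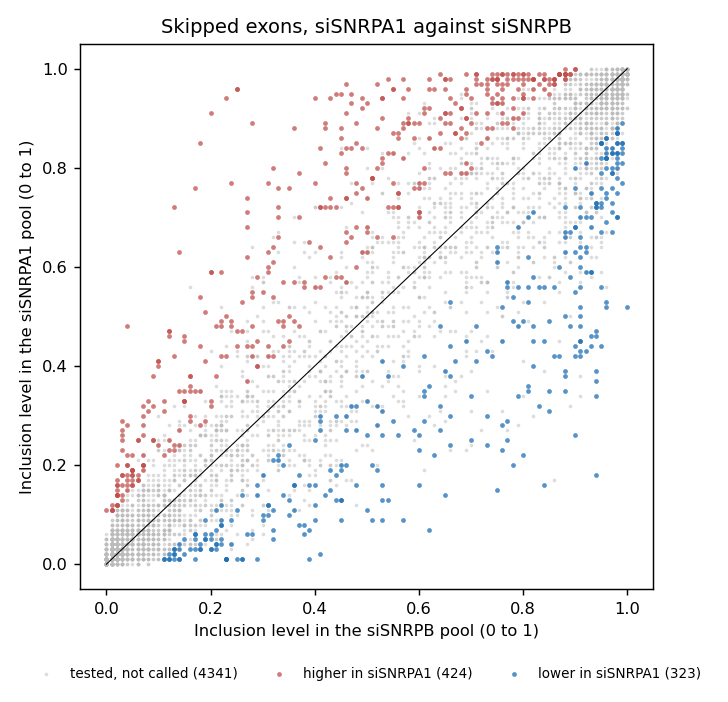
Inclusion level of the 5088 tested exons in the siSNRPB pool (horizontal axis, 0 to 1) and the siSNRPA1 pool (vertical axis, 0 to 1), each point 1 exon. The 424 exons called higher in siSNRPA1 lie above the diagonal, the 323 called lower lie below it, and the 4341 exons that were not called surround it.

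Exons called higher and lower differed in where they stood. Exons called higher had median levels of 0.77 in siSNRPA1, 0.46 in siSNRPB and 0.76 in siCtrl, with a median difference of 0.20 and a largest of 0.71. Those called lower had medians of 0.35, 0.73 and 0.52, with a median difference of 0.22 and a largest of 0.76. Differences of at least 0.4 were found in 44 exons called higher and in 56 called lower. In 87 of the exons called higher no exclusion read was seen in siSNRPA1, and in 86 of those called lower none was seen in siSNRPB.

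Of the exons called with 50 or more informative reads on each side, the largest higher inclusion was in CHN1, a GTPase-activating protein for Rac, and MFSD1, a lysosomal membrane transporter. The 289-nt coding exon of CHN1 (chr2:174877840-174878128) was at 0.95 in siSNRPA1, 0.44 in siSNRPB and 0.94 in siCtrl. Inclusion and exclusion reads were 253 and 3 in siSNRPA1 against 82 and 29 in siSNRPB, a share of inclusion reads higher by 24.95 percentage points (95% Newcombe interval 17.4 to 33.9; Fisher's exact test, adjusted p = 3.05e-11). The siSNRPB pool alone stood low, and the authors' intervals of the knockdowns, 0.88 to 0.98 and 0.35 to 0.55, did not overlap. MFSD1 showed the same order at its 134-nt exon, with levels of 0.97, 0.46 and 0.97 in siSNRPA1, siSNRPB and siCtrl. That exon matched only transcripts not annotated as protein-coding.

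Several other exons of this kind were near their siCtrl level in siSNRPA1 and low in siSNRPB. SH3D19, an SH3 domain adaptor, was at 0.86, 0.45 and 0.95 at the 108-nt exon printed above, with 178 inclusion and 1 exclusion reads in siSNRPA1 against 69 and 25 in siSNRPB (Fisher's exact test, adjusted p = 9.94e-10). LAMP2, a lysosomal membrane protein, was at 0.72, 0.33 and 0.68 at a 218-nt exon of transcripts not annotated as protein-coding. FAM207A was at 0.81, 0.42 and 0.80 at a 66-nt exon that matches no annotated one. In each of these exons siCtrl lay within 0.1 of siSNRPA1 and outside the authors' interval of siSNRPB. H2AFY, the histone variant macroH2A1, was at 0.96, 0.55 and 0.98 at a 100-nt coding exon, but its share of inclusion reads differed by only 5.50 points (618 and 1 reads against 150 and 9), and the exon overlaps C5orf66 on the other strand.

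In SNAP23, a SNARE protein of membrane fusion, both knockdowns stood below siCtrl by unequal amounts. Its 159-nt exon, which overlaps genes on the other strand, was at 0.59 in siSNRPA1, 0.22 in siSNRPB and 0.82 in siCtrl. The reads were 468 and 98 in siSNRPA1 against 49 and 60 in siSNRPB, a difference of 37.7 points (27.8 to 47.2; Fisher's exact test, adjusted p = 9.44e-13). MSRB3, a methionine sulfoxide reductase, and ERI3, an exoribonuclease, had siCtrl in between, at 0.89, 0.48 and 0.75 and at 0.90, 0.53 and 0.76. C9orf3, an aminopeptidase, also had siCtrl in between by level, at 0.59, 0.20 and 0.30. Its inclusion and exclusion reads were 85 and 19, 28 and 28, and 26 and 4, so that by read share siCtrl (86.7%) lay beside siSNRPA1 (81.7%).

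NIPA2, which transports magnesium, had the largest lower inclusion of these. Its 113-nt exon (chr15:22839062-22839174) was at 0.20 in siSNRPA1, 0.78 in siSNRPB and 0.19 in siCtrl. That exon matched only transcripts not annotated as protein-coding. Reads were 67 and 71 in siSNRPA1 against 96 and 11 in siSNRPB, and the share of inclusion reads fell by 41.2 points (Fisher's exact test, adjusted p = 6.1e-10). Here too siSNRPB stood apart from the other pools, in the opposite direction to CHN1.

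Of the 12 largest lower differences, 4 lay in coding exons of 60 nt or less, those of TRIM33, ASPH, YTHDC1 and AGTPBP1. TRIM33, a ubiquitin ligase that binds chromatin, was at 0.44 in siSNRPA1, 0.95 in siSNRPB and 0.66 in siCtrl at its 51-nt exon, with 46 and 44 reads against 56 and 1 (Fisher's exact test, adjusted p = 6.68e-09). PLOD2, a lysyl hydroxylase of collagen, was at 0.46, 0.94 and 0.64 at its 63-nt exon, which overlaps an antisense gene. ASPH, an aspartyl hydroxylase of the endoplasmic reticulum, was at 0.52, 0.96 and 0.84 at a 39-nt exon. In all 3 genes siCtrl lay between the knockdowns by level and at least 0.1 from each. By read share siCtrl in PLOD2 (80.8%) lay close to siSNRPA1 (77.1%), with siSNRPB at 100%.

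HIPK3 and YTHDC1 differed from these in that siSNRPB was near siCtrl. HIPK3, a homeodomain-interacting kinase, was at 0.42, 0.90 and 0.83 at its 63-nt exon. YTHDC1, the nuclear reader of m6A, was at 0.53, 0.96 and 0.96 at a 54-nt exon, with 48 and 6 reads against 64 and 0. AGTPBP1, which trims glutamates from tubulin, was at 0.48, 0.89 and 0.96 at a 38-nt exon. Longer exons in the same list included those of NDUFB6, a subunit of respiratory complex I (93 nt, 0.39, 0.88 and 0.50), and AMOTL1, an angiomotin of cell junctions (150 nt, 0.40, 0.82 and 0.52). PPIL3, a prolyl isomerase found in spliceosomes, was at 0.30, 0.73 and 0.84 at a 94-nt exon, with 124 and 97 reads against 136 and 17 (Fisher's exact test, adjusted p = 6.1e-10).

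**Figure D2:**
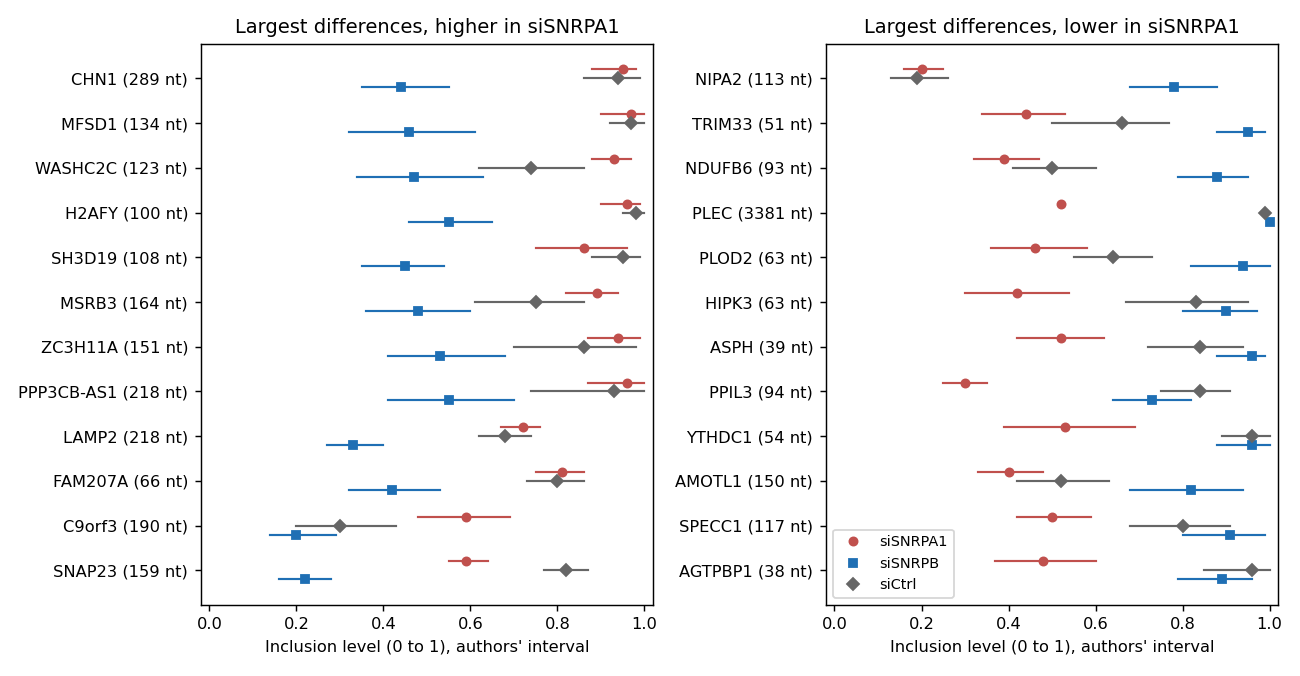
Inclusion level (horizontal axis, 0 to 1) with the authors' interval of the 12 largest differences each way among exons called with 50 or more informative reads on each side, 1 exon per gene, in siSNRPA1 (circles), siSNRPB (squares) and siCtrl (diamonds). In CHN1 and NIPA2 the siCtrl value sits beside siSNRPA1, in HIPK3 and YTHDC1 it sits beside siSNRPB, and in TRIM33 it lies between them.

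Among the most deeply read calls, SPTAN1, the nonerythroid alpha spectrin under the plasma membrane, gave the clearest lower inclusion. Its 60-nt exon was at 0.56 in siSNRPA1 (authors' interval 0.53 to 0.59), 0.83 in siSNRPB (0.80 to 0.86) and 0.46 in siCtrl. Reads were 621 and 326 in siSNRPA1 against 613 and 85 in siSNRPB, and the share of inclusion reads fell by 22.3 points (95% Newcombe interval -26.1 to -18.3; Fisher's exact test, adjusted p = 4.79e-23). On the other side, the 22-nt exon of RPS24, a ribosomal protein of the small subunit, was at 0.24 in siSNRPA1, 0.13 in siSNRPB and 0.25 in siCtrl. Its reads were 1095 and 2422 against 202 and 920 (Fisher's exact test, adjusted p = 1.56e-15), though near-identical copies of ribosomal protein genes can share reads. GNB1, a G protein beta subunit, was lower, at 0.70, 0.81 and 0.87 at a 49-nt exon of its 5' UTR.

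The siCtrl pool served as background to place these differences. For exons called higher that had 20 or more informative reads in siCtrl, 332 of 407 had siCtrl nearer to siSNRPA1 and 73 nearer to siSNRPB. In 233 of them siSNRPA1 was within 0.1 of siCtrl while siSNRPB was at least 0.1 away, and in 44 it was the reverse. Exons called lower were split more evenly, with siCtrl nearer to siSNRPA1 in 145 of 312 and nearer to siSNRPB in 163. In 94 of these siSNRPA1 alone was within 0.1 of siCtrl, and in 105 siSNRPB alone was. By level, the knockdowns lay at least 0.1 on opposite sides of siCtrl in 23 exons called higher and 58 called lower. TRIM33, PLOD2, ASPH, NDUFB6 and AMOTL1 were among the latter. The knockdowns lay at least 0.1 on the same side of siCtrl in 73 and 34, as in SNAP23. By read share siCtrl lay close to siSNRPA1 in PLOD2, NDUFB6 and AMOTL1, and further from it in TRIM33 and ASPH. In NDUFB6 the siCtrl, siSNRPA1 and siSNRPB shares were 88.9%, 85.6% and 97.2%, and in AMOTL1 84.0%, 77.5% and 96.3%. These placements are descriptions with no test.

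Exons called lower were shorter than the rest. Their median length was 93 nt, against 122.5 nt for exons called higher and 122 nt for tested exons not called, and 25.1% were of 60 nt or less, against 9.20% and 9.84%. Of the 547 tested exons of 60 nt or less, 81 were called lower (14.8%, against 6.35% of all tested exons) and 39 higher (7.13%, against 8.33%). In the shortest class, 1 to 30 nt, 19 of 85 were called lower and 5 higher, and the 18-nt exon of DST belongs there. From 121 to 200 nt the order was turned, with 70 of 1683 called lower and 160 higher. Among coding exons of 60 nt or less with a length in whole codons, such as those of TRIM33, BCOR and SPTAN1, 47 of 268 were called lower (17.5%) and 17 higher (6.34%).

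Reading frame differed less than length. Lengths that are multiples of 3 made up 67.0% of coding exons called lower, 56.8% of those called higher and 58.9% of those not called. Last bases AG were found in 50.3%, 56.0% and 55.3% of all such exons with a sequence, and the median GC content was 47.6%, 48.8% and 49.4%. Median informative reads in the shallower siSNRPB pool were 54, 62 and 76 in the same order, so the exons called lower were also the least deeply read.

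Flanking introns went the other way from short to long. The median upstream intron was 1545 nt for exons called lower, 2826 nt for exons called higher and 2036 nt for those not called. Downstream introns had medians of 1459, 2833 and 1972 nt. From the shortest to the longest quartile of downstream introns, the share called higher was 5.03%, 7.79%, 9.51% and 11.01%, and the share called lower was 8.17%, 6.61%, 5.27% and 5.35%. Of 726 exons between introns that were both over 5000 nt, 77 were called higher (10.6%) and 35 lower (4.82%), while between introns both under 1000 nt 49 of 859 were called higher and 59 lower. The exon of CHN1, called higher, lies between introns of 36929 and 30882 nt, and that of HIPK3, called lower, between introns of 152 and 293 nt. By siCtrl level the counts were uneven. At a level of 0.9 or more, 30 of 210 exons with both introns over 5000 nt were called higher and 5 lower, against 15 and 18 of 239 with both under 1000 nt. At 0.7 to 0.9 they were 11 and 7 of 95 against 8 and 9 of 96, and at 0.3 to 0.7 they were 24 and 9 of 132 against 17 and 12 of 126. Below 0.3 higher calls did not outnumber lower ones between long introns, with 6 and 8 of 92 at 0.1 to 0.3 and 4 and 5 of 173 under 0.1. These are counts over exons, which are not replicates, and no test was made of them.

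**Figure D3:**
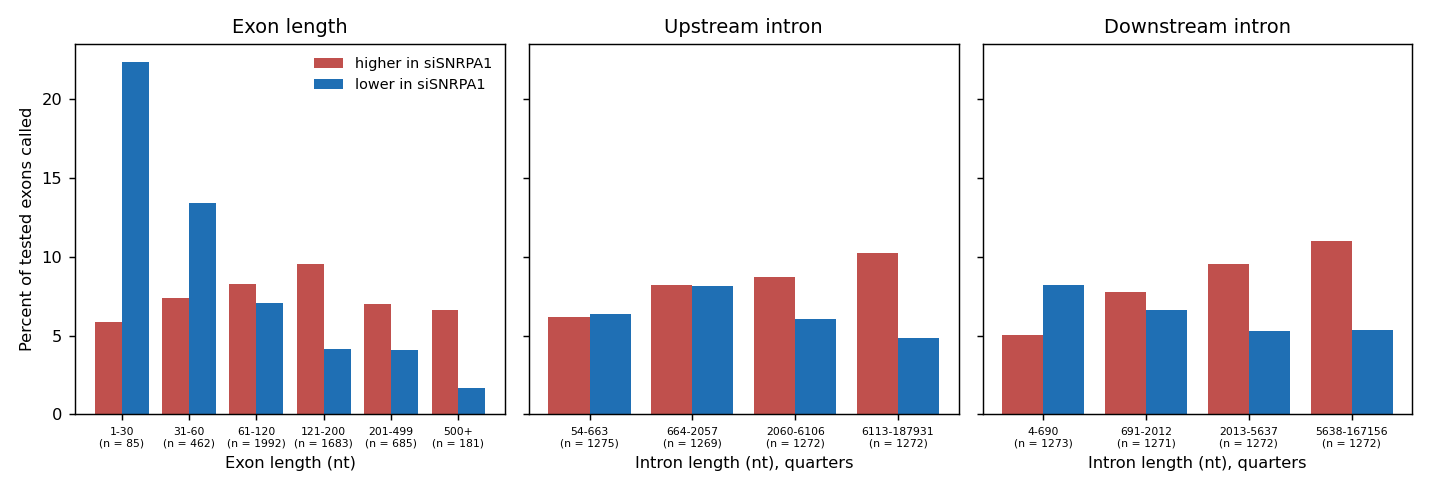
Percent of tested exons called higher (red) and lower (blue) in siSNRPA1 (vertical axis) by exon length in nt, upstream intron length and downstream intron length (horizontal axes, n tested exons in each class). Lower calls fall from 22.4% at 1 to 30 nt to 1.66% at 500 nt or more, and higher calls rise from 5.03% to 11.01% over the quartiles of the downstream intron.

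Genes of the splicing machinery were themselves among those with tested exons. Where the number of calls in a list moved by over 1.5 times with the read share in place of the level, under which 904 of all 5088 tested exons were called (17.8%), both numbers are given. Of 22 tested exons in genes of the U2 snRNP and 3' splice site factors, 0 were higher and 2 lower (9.09% called, against 14.7% of all tested exons), and 0 and 1 by read share. These were U2AF1L4, a relative of the small U2AF subunit, at 0.43 in siSNRPA1, 0.73 in siSNRPB and 0.39 in siCtrl (Fisher's exact test, adjusted p = 0.0402), and RBM10, at 0.53, 0.66 and 0.48. For RBM10 the authors' intervals of the knockdowns, 0.44 to 0.63 and 0.48 to 0.86, overlapped. The list of Sm, LSm and other snRNP genes had 56 tested exons, of which 3 were higher and 0 lower (5.36%). LSM14A, an LSm-domain protein of mRNA storage and decay, was at 0.85, 0.72 and 0.94 (5.72 points in read share), LSM1 at 0.98, 0.85 and 0.99, and PRPF18, a second-step factor that overlaps an antisense pseudogene, at 0.20, 0.07 and 0.21.

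SR proteins, their kinases and other RS-domain genes had 5 exons higher and 5 lower of 52 (19.2%, against 14.7%). DYRK1A, a kinase of nuclear speckles, was at 0.95 in siSNRPA1, 0.45 in siSNRPB and 0.97 in siCtrl at an 86-nt exon, with 101 and 1 reads against 29 and 12. SRSF10, an SR protein that can repress splicing, was at 0.77, 0.40 and 0.94 at its 54-nt exon, with 60 and 4 reads against 15 and 12 (Fisher's exact test, adjusted p = 0.00063). The related kinase DYRK2 went the other way, at 0.22, 0.63 and 0.36, as did HIPK3. Among hnRNPs and other regulators 7 of 102 exons were higher and 3 lower (9.80%), and 8 and 8 by read share (15.7%, against 17.8%). PUM2, a translational repressor, was at 0.74, 0.46 and 0.95, and ZRANB2 at 0.55, 0.28 and 0.54, where an antisense gene overlaps. Lower were RBM38, an RNA-binding target of p53, at 0.56, 0.86 and 0.85 with 163 and 108 reads against 137 and 17 (Fisher's exact test, adjusted p = 8.83e-09), and RBM41, at 0.34, 0.70 and 0.63. In genes of mRNA export, the exon junction complex and decay, 5 of 63 were higher and 1 lower (9.52%), with CNOT1, the scaffold of the deadenylase complex, at 0.99, 0.79 and 0.97 and a difference in read share of 6.98 points.

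Cell cycle and mitosis genes had 14 exons higher and 9 lower of 99 (23.2%, against 14.7%) and a median difference of -0.01. SGO1, the protector of centromeric cohesion, was at 0.15 in siSNRPA1, 0.75 in siSNRPB and 0.58 in siCtrl at a 51-nt exon, with 9 and 24 reads against 23 and 4, and it overlaps SGO1-AS1. AURKA, the Aurora A kinase, had 3 called exons in its 5' UTR, 2 of them lower and 1 higher. The 195-nt exon was at 0.16, 0.84 and 0.09, the 98-nt exon at 0.37, 0.94 and 0.57, and the 110-nt exon at 0.71, 0.27 and 0.84. Its reads were few, for instance 23 and 19 against 23 and 0 at the 195-nt exon. AURKB, the Aurora B kinase, was higher, at 0.95, 0.85 and 0.95, but its share of inclusion reads differed by only 2.94 points.

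DNA repair genes had 2 exons higher and 1 lower of 36 (8.33%, against 14.7%). With the read share as the measure 9 of the 36 were called, 7 higher and 2 lower, against 17.8% of all tested exons. ERCC1, a subunit of the excision repair nuclease, was at 0.89 in siSNRPA1, 0.60 in siSNRPB and 0.97 in siCtrl, with 348 and 13 reads against 72 and 19 (Fisher's exact test, adjusted p = 1.38e-05). XPA, the damage verification factor, was at 0.45, 0.15 and 0.47 at an exon that matches no annotated one. FANCI, of the Fanconi anaemia pathway, was lower, at 0.42, 0.74 and 0.44. Chromatin regulators had 11 higher and 6 lower of 118 (14.4%, close to the share of all tested exons). BCOR, a Polycomb corepressor, was at 0.07, 0.62 and 0.58 at its 54-nt exon, with 3 and 19 reads against 17 and 4 (Fisher's exact test, adjusted p = 0.0002). KDM5A, a histone demethylase, was at 0.83, 0.55 and 0.76 at an exon that matched only transcripts not annotated as protein-coding. EZH2, the methyltransferase of Polycomb complex 2, was at 0.53, 0.26 and 0.42, with a difference in read share of 8.71 points. By read share siCtrl (91.1%) lay with siSNRPB (90.5%), and siSNRPA1 was at 99.2%.

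Apoptosis and p53 genes had 2 higher and 2 lower of 62 (6.45%, against 14.7%), and 6 and 3 by read share (14.5%, against 17.8%). APAF1, the scaffold of the apoptosome, was at 0.56 in siSNRPA1, 0.91 in siSNRPB and 0.56 in siCtrl at a 129-nt exon. Its siCtrl reads were 21 and 1, so that by read share siCtrl (95.5%) lay nearer to siSNRPB (100%) than to siSNRPA1 (79.7%). MDM2, the ubiquitin ligase for p53, was at 0.03, 0.20 and 0.02, with 10 and 172 reads against 16 and 37 (Fisher's exact test, adjusted p = 0.000111). BCL2L11, the BH3-only protein BIM, was higher, at 0.97, 0.72 and 0.89, and overlaps a gene on the other strand. Growth factor, Ras, mTOR and Hippo genes had 9 higher and 6 lower of 116 (12.9%). SOS2, an exchange factor for Ras, was at 0.83, 0.45 and 0.69 and MAP2K7, a kinase upstream of JNK, at 0.30, 0.66 and 0.37. PIK3R3, a regulatory subunit of phosphoinositide 3-kinase, was at 0.66 and 0.33 with overlapping authors' intervals, and its siCtrl level rested on 10 informative reads.

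Genes with exons known from epithelial-mesenchymal splicing had 14 exons higher and 13 lower of 140 (19.3%, against 14.7%), and cytoskeleton and adhesion genes, which share several of them, 13 and 12 of 169 (14.8%). With 1 exon per gene 5 of 32 in the first list were called (15.6%, against 15.2% of such exons). ARFGAP2, a GTPase-activating protein of vesicle coats, was at 0.88 in siSNRPA1, 0.36 in siSNRPB and 0.78 in siCtrl. Its exon matched only transcripts not annotated as protein-coding. Lower were the 18-nt exon of DST, a plakin that links cytoskeletal filaments, at 0.35, 0.81 and 0.43, and the 31-nt exon of LIMCH1, an activator of nonmuscle myosin, at 0.45, 0.91 and 0.77. DST had 53 and 25 reads in siSNRPA1 against 30 and 0 in siSNRPB (Fisher's exact test, adjusted p = 0.00107). ILK, the integrin-linked kinase, was lower at 0.75, 0.93 and 0.90, with a difference in read share of -3.70 points, and overlaps TAF10 on the other strand.

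Lists outside splicing and the cytoskeleton gave calls in both directions. Translation factors and tRNA synthetases had 2 exons higher and 5 lower of 69 (10.1%, against 14.7%), and 10 and 7 by read share (24.6%, against 17.8%). HARS2, the mitochondrial histidyl-tRNA synthetase, was below siCtrl in both knockdowns at a 99-nt exon, at 0.36 in siSNRPA1, 0.62 in siSNRPB and 0.97 in siCtrl. EIF3E, a subunit of initiation factor 3, was at 0.01, 0.23 and 0.04 at a 145-nt exon, with 1 and 35 reads against 22 and 28. That exon matched only transcripts not annotated as protein-coding. EIF3D, another subunit, was at 0.12, 0.40 and 0.29 in its 5' UTR. Cytosolic ribosomal protein genes had 2 and 2 of 44 (9.09%), and mitochondrial respiration and ribosome genes 7 and 10 of 113 (15.0%), 6 of the 17 in SPG7.

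Vesicle trafficking genes had 7 exons higher and 4 lower of 108 (10.2%, against 14.7%), and 11 and 7 by read share (16.7%, against 17.8%). VPS53, a subunit of tethering complexes at the Golgi, was at 0.22 in siSNRPA1, 0.80 in siSNRPB and 0.37 in siCtrl at an 87-nt exon, with 14 and 8 reads against 23 and 0. In siCtrl the reads were 22 and 0, so that by read share siCtrl lay with siSNRPB. RABGAP1L, a GTPase-activating protein for Rab proteins, was at 0.38, 0.88 and 0.76 at an exon that matched only transcripts not annotated as protein-coding. The median difference of the 16 lists ran from -0.01 to 0.02, against 0.00 over all tested exons.

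**Figure D4:**
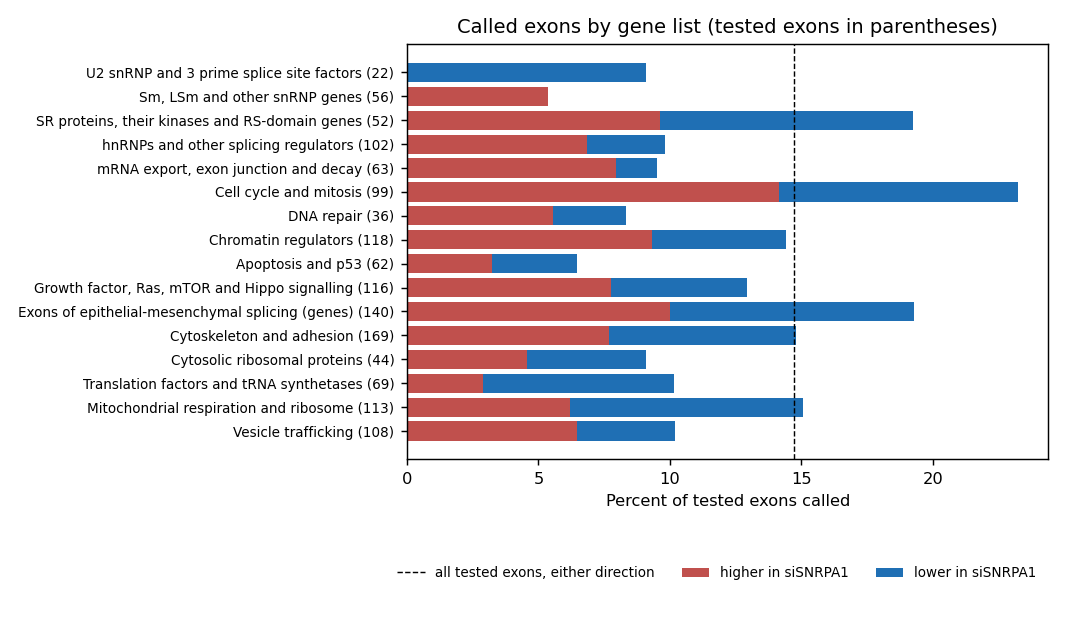
Percent of tested exons called (horizontal axis) higher (red) and lower (blue) in siSNRPA1 in the 16 gene lists, with the number of tested exons in parentheses, and all tested exons in either direction (dashed line, 14.7%). Cell cycle and mitosis genes reach 23.2%, and Sm, LSm and other snRNP genes 5.36%.

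A called exon was found in 641 genes, and 88 had at least 2. In 46 of these all called exons were higher, in 26 all were lower and in 16 they went opposite ways. The counts include genes whose called exons are overlapping forms of 1 exon, such as C6orf48 and ADGRG1. Like direction in such forms does not come from separate observations. DST was lower at its 18-nt exon but higher at a 111-nt exon, at 0.87 in siSNRPA1, 0.69 in siSNRPB and 0.97 in siCtrl. At the 111-nt exon the read share differed by only 4.86 points, and the authors' intervals overlapped. SH3D19 was higher at its 108-nt exon and lower at a 69-nt exon, at 0.25, 0.40 and 0.45, with 102 and 195 reads against 61 and 52 (Fisher's exact test, adjusted p = 0.00354). SPECC1, a cytospin, was lower at a 117-nt exon (0.50, 0.91 and 0.80) and higher at a 1580-nt exon (0.95, 0.80 and 0.97). Its 1580-nt exon differed by only 2.09 points in read share. WASHC2C, of the endosomal WASH complex, was higher at a 123-nt exon (0.93, 0.47 and 0.74) and lower at a 63-nt exon (0.32, 0.83 and 0.21), although its near-identical copy WASHC2A can share its reads. In SPG7, a mitochondrial protease, 3 overlapping forms of 1 exon were higher and 3 other exons or forms lower. All of them matched only transcripts not annotated as protein-coding. These forms share exclusion reads and are not separate observations. By read share the higher forms differed by only 5.29 to 9.12 points.

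The authors' level and the share of inclusion reads did not always move by like amounts. A difference of at least 0.1 in both measures was met by 594 of the 747 calls (11.7% of tested exons), 325 higher and 269 lower. Over calls in exons of 500 nt or more, 5 of 15 met both, with medians of 0.16 in level and 8.06 points in read share. In shorter exons 589 of 732 did, with medians of 0.22 and 21.0 points. PLEC, the plakin plectin, was the extreme case. Its 3381-nt coding exon was at 0.52 in siSNRPA1, 1.00 in siSNRPB and 0.99 in siCtrl, whereas 55672 inclusion and 18 exclusion reads stood against 54786 and 4. The share of inclusion reads therefore fell by only 0.025 points (Fisher's exact test, adjusted p = 0.0209). ASPM, a spindle pole protein with a 4755-nt exon, was at 0.63, 0.31 and 0.70, with 6325 and 34 reads against 1684 and 79, a difference of 3.95 points. DEK, a chromatin protein, was at 0.80, 0.97 and 0.96 with a difference of -2.76 points. Where the difference in share is this small the call rests on the authors' level.

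**Figure D5:**
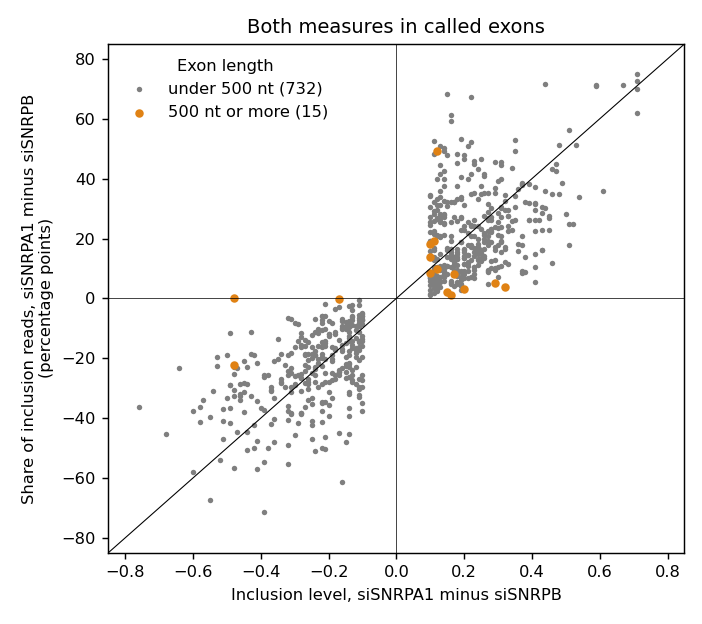
Difference between siSNRPA1 and siSNRPB in the authors' inclusion level (horizontal axis) and in the share of inclusion reads in percentage points (vertical axis) for the 747 called exons, with 15 exons of 500 nt or more in orange. The long exon at a level difference of -0.48 and a share difference of about 0 is that of PLEC, and the diagonal marks equal differences.

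Many exons were measured well enough to bound the difference. The 95% Newcombe interval of the difference in read share lay wholly within 10 points of 0 for 1884 of 5088 tested exons (37.0%). It did so for 1529 of 2009 (76.1%) that had 100 or more informative reads on each side. Of the 747 called exons 54 were among these, those of PLEC, ATF7IP and ASPM included. For the other 4341 exons 1830 intervals were that narrow, and for the rest a difference of 10 points or more was not excluded by the reads. Among the untested members, 1856 differed by at least 0.1 in level with too few reads of 1 kind to test, and 6160 had no exclusion read in either knockdown.

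Exons of the targets themselves gave no call. The 124-nt exon of SNRPB was at 0.00 in siSNRPA1, 0.01 in siSNRPB and 0.01 in siCtrl, with 18 inclusion and 5329 exclusion reads against 4 and 167. Its adjusted p was 0.0204 (Fisher's exact test), but the difference of -0.01 lay under the minimum of 0.1. The 80-nt exon of SNRPA1 was at 0.96, 1.00 and 0.98 with no exclusion read in either knockdown, and was not tested. The 47-nt exon of SNRPA1 was at 0.84, 0.56 and 0.62. With 34 and 1 reads against 80 and 0 it was not tested either. ERRFI1, an inhibitor of the EGF receptor, was at 0.20, 0.39 and 0.67 at its 77-nt exon. Its reads went the other way, with 112 and 2 in siSNRPA1 against 96 and 7 in siSNRPB (Fisher's exact test, adjusted p = 0.195), and it was not called. The 36-nt and 15-nt exons of PLEC were at 0.00 in both knockdowns.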

How the data were processed

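Total RNA of MDA-LM2 cells was made into stranded libraries, per the labels' protocols. The authors deposited 1 file of skipped-exon events for each group, with the column names of MISO. The sources used here do not give its version and settings, how libraries were pooled or the strand setting. STAR 2.7 and hg38 are named in the submitters' processing notes with no role. Inclusion levels, a fraction per event with interval bounds of unstated width, were deposited with 2 decimals, per the file headers. MISO allows for the length of each form, so its level need not equal the read share. Read counts by class were deposited as whole numbers. The authors' comparison tables with siCtrl were not used, and 0 columns of per-sample values were left unused.

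Members needed 20 informative reads in each knockdown. Those reaching 5 inclusion and 5 exclusion reads, both knockdowns added, were tested by a two-sided Fisher's exact test with Benjamini-Hochberg adjustment, with calls at an adjusted p under 0.05 and a difference of at least 0.1 (Python 3.11.15, scipy 1.17.1, numpy 2.4.6, pandas 2.3.3, matplotlib 3.10.9). Calling by read share was run on simulated reads that varied by counting error alone. The rule with the authors' level was not simulated. Gene names, places, lengths and sequences came from GENCODE 29, which held 97.0% of member exons. Genes with near-identical copies and exons with an antisense gene are uncertain. No genome sequence was used here, so intron sequences were not read.

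Among calls with 50 or more informative reads on each side, the rule named the 12 largest differences each way and the 8 most deeply read each way, 1 per gene. To these came the 5 largest each way with the knockdowns on opposite sides of siCtrl by at least 0.1, and up to 4 called exons of each of 16 gene lists. Also named were the best-read exons (3 at most) of PLEC, ERRFI1 and the 2 targets, and the called exons of 6 genes with calls in opposite directions. The text gives those that carry a comparison. Members and lists were chosen with earlier results of these data known. Alternatives changed the read minimum, the smallest difference, the measure, the choice of event, the read counts, the test and its adjustment. 3 more were chosen after seeing the data, namely both measures together, no exons with an antisense gene and no exons of 500 nt or more.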

Additional observations from a re-analysis of the deposited data

How the results depend on the processing

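No call changed direction among those kept under any of the 15 alternatives run, but their number did change. Where an alternative kept the same event, the direction was fixed, because every call took the sign of the unchanged authors' level or matched it. Only alternatives that could take another event of an exon left the direction free to change. The calls (higher and lower) numbered 420 (247 and 173) with at least 50 informative reads in each knockdown, 219 (129 and 90) with at least 100, 421 (223 and 198) at a difference of at least 0.2, and 306 (186 and 120) with 1 exon per gene. They numbered 225 (144 and 81) with reads divided by 2, 206 (130 and 76) under Bonferroni adjustment, and 486 (257 and 229) with the deeper pool thinned to the shallower. The other 8 alternatives gave 594 to 904 calls. Higher calls made up 47.5% with non-overlapping intervals in place of the test and 52.9% to 64.0% otherwise. Exons of 60 nt or less made up 19.5% to 35.5% of lower calls and 8.07% to 12.5% of higher ones, and the median introns of higher calls were the longer in every setting. GRB10 turned to -0.13 with the event best read over all 3 pools (Fisher's exact test, adjusted p = 0.167), from a difference of 0.27. Of 94 named calls, 27 did not reach 0.1 in read share, among them H2AFY, ASPM, PLEC, EZH2, CNOT1, AURKB, DEK, ILK and RBM10, and 41 of 84 tested were lost with reads divided by 2, SRSF10, HIPK3 and DST among them. The cause was not tested where the number of exons or reads did not set it. No paired analysis was possible because each group has 1 pool of values and the knockdowns share only replicate number 1, and for the same reason no library could be left out. Member exons had a median of 170 informative reads in siSNRPA1 and 70 in siSNRPB.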
